A study of Mus musculus with 22 samples.

Results

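Oxidative phosphorylation subunits are the proteins that make up complexes I to V of the mitochondrial inner membrane. Their genes were chosen by name, as every row of the raw count matrix whose symbol follows the naming scheme of these subunits and whose count averaged at least 10 over the 22 libraries. Of 55573 genes in the matrix, 98 rows had such a symbol and 87 of them passed the minimum. These were 79 nuclear-encoded and 8 mitochondrially encoded subunits. Complex I held 35 nuclear and 5 mitochondrial members, complex II 4 nuclear members, complex III 8 and 1, complex IV 15 and 1 (Ndufa4 counted here) and complex V 17 and 1. The 11 rows under the minimum were Cox4i2, Cox6b2, Cox6c2, Cox7b2, Cox8c, a second row named Atp5o, mt-Co2, mt-Co3, mt-Atp8, mt-Nd3 and mt-Nd4l.

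The livers came from mice that carry Albumin-Cre, which drives the Cre recombinase in hepatocytes, so both genotypes expressed Cre. Cre mice had wild-type Flcn alleles and liver-Flcn-/- mice had floxed Flcn alleles, and Flcn encodes folliculin. On a C57BL/6 background, mice were given chow with 10 kcal percent fat or a methionine- and choline-deficient (MCD) diet from 6 weeks of age for 6 weeks, and the livers were taken at about 3 months. There were 6 Cre livers on chow, 5 Cre livers on MCD, 5 liver-Flcn-/- livers on chow and 6 liver-Flcn-/- livers on MCD. Each library was poly(A)-selected mRNA read as single 75-base reads, and 13751347 to 21144388 reads per library were assigned to genes. The bulk liver holds other cell types as well, and in which of them Flcn was deleted was not tested. A change in the number of cells of a type and a change in RNA per cell cannot be told apart.

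Complexes I to IV pass electrons from NADH and succinate to oxygen. Complexes I, III and IV pump protons, and complex V uses the proton gradient to make ATP. Complex II is wholly nuclear-encoded, whereas complexes I, III, IV and V are built from subunits of both genomes, so that the nucleus and the mitochondrion each supply part of the same machine. Hepatocytes are rich in mitochondria, and folliculin is known to restrain the transcription factors TFEB and TFE3 and, in other tissues, the coactivator PGC-1alpha that drives transcription of respiratory genes.

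The mitochondrial genome encodes 13 subunits, and their counts are given beside the sequence they share with other genes. A stretch of chromosome 1 carries a nuclear copy of part of the mitochondrial genome, and the annotated copies of mt-Co1, mt-Co2, mt-Atp6, mt-Co3, mt-Nd3, mt-Nd4l and mt-Nd4 lay there in one order, opposite mitochondrial positions 6381 to 11042 (GRCm38, GENCODE M21). The copy of mt-Co2, Gm28661 (chr1:24614885-24615565, minus strand), matched 681 of the 684 bases of mt-Co2 (chrM:7013-7696, plus strand) without a mismatch. The following 75-base stretch, one read long, is shown because it is the same in both genes, and no base is in capitals because none differs.
mt-Co2, chrM:7316-7390, plus strand: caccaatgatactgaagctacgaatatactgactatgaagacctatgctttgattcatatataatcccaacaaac
Gm28661, chr1:24615188-24615262, minus strand: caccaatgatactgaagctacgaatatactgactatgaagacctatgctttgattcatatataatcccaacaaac
A read of this kind has no unique position, and the count of mt-Co2 averaged 7.95 per library. Of all 75-base windows, 99.5% were shared with another annotated gene for mt-Co2, 99.9% for mt-Co3, 99.5% for mt-Atp6, 97.8% for mt-Nd3 and 98.7% for mt-Nd4l. mt-Atp8 shared no window with an annotated transcript but lies at chrM:7766-7969, inside the stretch, and its count averaged 3.18. The cause of the low counts was not tested.

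The 7 mitochondrial subunits that can be read from these counts were mt-Nd1, mt-Nd2, mt-Nd4, mt-Nd5 and mt-Nd6 of complex I, mt-Cytb of complex III and mt-Co1 of complex IV, with mean counts from 6027 (mt-Nd6) to 250625 (mt-Co1). For mt-Co1, 39.8% of windows were shared, and for mt-Nd4 61.5%. The eighth, mt-Atp6, passed the minimum with a mean count of 17.95, and nothing about complex V is read from it. The plot of counts in genome order shows the gap between mt-Co1 and mt-Nd4.

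**Figure D1:**
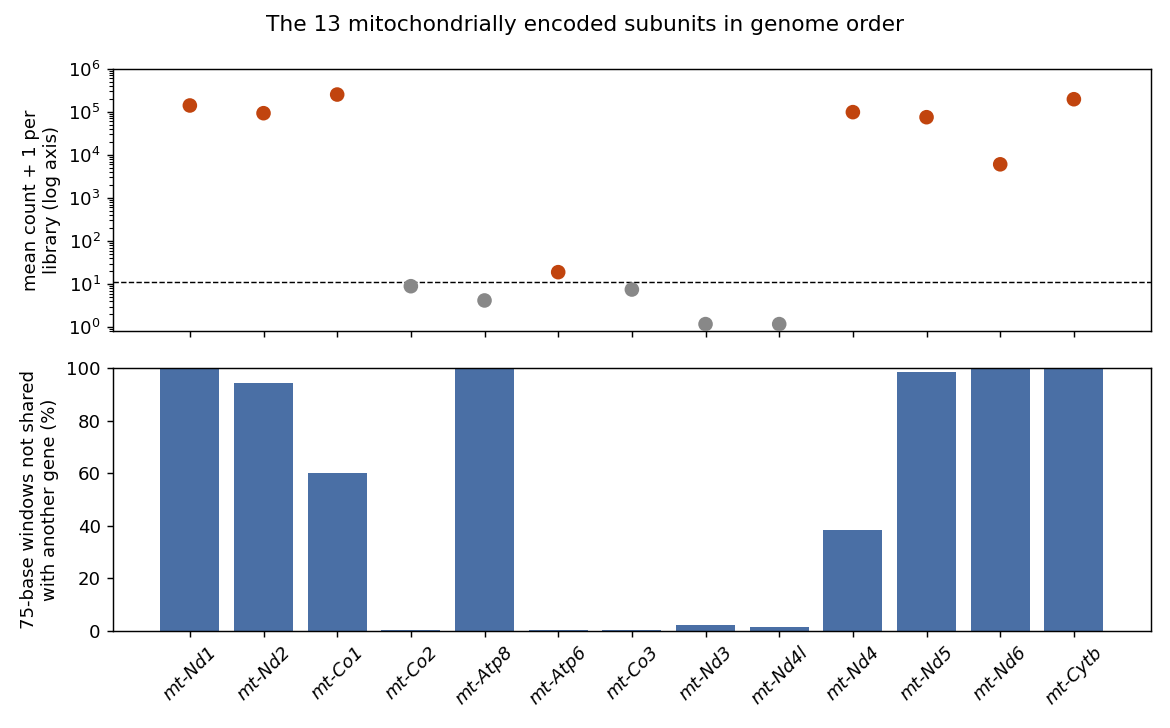
The 13 mitochondrially encoded subunits in genome order: mean count plus 1 per library on a log axis (upper panel, red points passed the minimum of 10, dashed line) and percent of 75-base windows not shared with another annotated gene (lower panel). The genes from mt-Co2 to mt-Nd4l have mean counts under 20, and all of these but mt-Atp8 have almost no unshared window.

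Several libraries stood apart. The library Cre MCD 3 held 3649 CPM (read counts scaled to a common library size with TMM factors) summed over 15 skeletal muscle markers, of which Myh1 was the most abundant over the series. Cre MCD 4 held 180.1, the liver-Flcn-/- library MCD 3 held 89.1, and the other 19 held 4.91 to 27.6. Xist was at 100 CPM or more in 12 libraries, 3 of each group, and 5 of these 12 (Cre chow 2, Cre MCD 1, liver-Flcn-/- chow 2 and 4, liver-Flcn-/- MCD 3) also held 10 CPM or more of Y-linked genes, whereas a female liver should hold none. The labels used here give no sex. On chow, the 5 Xist-low libraries were also those with a low share of uniquely mapped reads, so that sex and this property cannot be told apart there. Cre MCD 5 was the highest Cre MCD library for each of the 7 readable mitochondrial subunits.

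Flcn itself was at 26.1 to 40.2 CPM in Cre livers on chow (median 31.8) and at 24.2, 19.96, 16.7, 19.4 and 21.8 CPM in liver-Flcn-/- livers, which lay lower without overlap (log2 fold change −0.63 ± 0.17 SE, edgeR adjusted p = 0.0249). On MCD, Cre livers had 31.8, 18.2, 39.9, 32.5 and 23.6 CPM and liver-Flcn-/- livers 17.6 to 32.6 CPM (median 26.6), and the groups overlapped. The deletion removes exon 7 and the count covers the whole gene, so Flcn is a weak check of the genotype. Rragd, a known TFEB and TFE3 target that was chosen here after its values were seen, was at 1.502 to 2.594 CPM in Cre and 17.2 to 41.7 CPM in liver-Flcn-/- livers on chow. On MCD it was at 3.83 to 9.89 CPM in Cre and 45.5 to 74.3 CPM in liver-Flcn-/- livers, so that the genotypes did not overlap on either diet.

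With TMM scaling, more nuclear-encoded subunits fell than rose with MCD in Cre livers, and more rose than fell in liver-Flcn-/- livers. In Cre livers 37 of 79 fell and 4 rose (Uqcr10, Ndufa8 and the muscle isoforms Cox6a2 and Cox8b), with a median log2 fold change of −0.16. Without the 3 muscle isoforms Cox6a2, Cox7a1 and Cox8b, 37 of 76 fell and 2 rose. Over all 14062 tested genes 28.2% fell and 29.3% rose, with a median of 0.01. Of the 8143 tested genes with a mean of at least 10 CPM, 34.8% fell and 24.8% rose, with a median of −0.07. Of the 75 nuclear subunits at that level, 37 fell and 2 rose, with a median of −0.17. With MCD in liver-Flcn-/- livers 42 of 79 rose and none fell, with a median of 0.25, against 22.5% of all genes rising, 22.5% falling and a median of 0.00. Here edgeR was used with all 4 groups in 1 fit and an adjusted p threshold of 0.05. By these calls 9 of 79 subunits both fell in Cre and rose in liver-Flcn-/- livers. The share of all genes with both calls is not given here, so the 9 are a description only. In Cre livers 25 of 79 subunits were lower on MCD without overlap of the diet groups, against 16.9% of all genes. In liver-Flcn-/- livers 14 of 79 were higher on MCD without overlap, a share near the 14.4% of all genes. By limma-voom and by DESeq2, too, 0 fell in liver-Flcn-/- livers, and 2 (Ndufa6 and Ndufb11) were lower there at an unadjusted edgeR p under 0.05.

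The direction of the diet comparison in Cre livers depended on the scaling. TMM factors averaged 0.846 in Cre livers on chow and 1.13 in Cre livers on MCD, and with library totals in place of these factors the median of all genes moved from 0.01 to 0.43. The median of the nuclear subunits then became 0.27, with 41 rising and 4 falling, so it lay below the median of all genes under either scaling. The direction stayed in liver-Flcn-/- livers, but library totals moved the rises from 42 to 70 of 79 and the median from 0.25 to 0.51, against 0.27 over all genes. As a share of all counts, nuclear subunits took 1.28% ± 0.04 (SD, n = 6) of Cre chow libraries and 1.51% ± 0.14 (n = 5) of Cre MCD libraries. In liver-Flcn-/- libraries they took 1.34% ± 0.14 (n = 5) on chow and 1.96% ± 0.14 (n = 6) on MCD.

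The genotype comparison on MCD did not depend on the scaling, since the median of all genes moved by only 0.01 on the log2 scale. In liver-Flcn-/- livers 48 of the 79 nuclear subunits were higher than in Cre livers and 2 were lower (Cox6a2 and Cox8b, which met the count minimum through Cre MCD 3 and from which nothing is read), with a median of 0.34, whereas 8.06% of all genes were higher and 8.53% lower, with a median of −0.01. Without the muscle isoforms 48 of 76 were higher and 0 lower. With library totals, 49 were higher. In 32 of 79 every liver-Flcn-/- liver lay above every Cre liver, against 5.08% of all genes, and in 0 every one lay below, against 3.53%. On chow, none was higher and 4 were lower in liver-Flcn-/- livers (Ndufa7, Ndufb11, Uqcrb and Ndufa6), against 5.52% and 3.1% of all genes. These 4 are 5.06% of the nuclear subunits, and 4.14% of the tested genes with a mean of at least 10 CPM were lower. The nuclear median on chow was −0.10, against −0.07 over the genes at that level and −0.03 over all genes. The groups on chow did not overlap for 1 higher subunit (Cox7a1), against 4.01% of all genes, and for 4 lower ones, against 2.93%. At an unadjusted edgeR p under 0.05, 1 was higher (Cox8b) and 17 were lower. The share of all genes at this unadjusted threshold is not given here, for this or the other comparisons, so such counts are a description only. DESeq2 called 1 higher and 8 lower, and limma-voom 0 and 4.

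The difference between the diet responses of the genotypes was tested as an interaction term, in which a positive value means a higher response to MCD in liver-Flcn-/- livers. It was positive past the threshold for 46 of 79 nuclear subunits and negative for Cox8b, with a median of 0.46, against 3.29% and 5.54% of all genes and a median of 0.03. With the replicate number as a block 20 were positive (median 0.43), and without a low-count filter 23 of 82 were (median 0.44). With library totals, 16 were positive past the threshold and the median was 0.29, against −0.13 over all genes. Without the 5 libraries that held both Xist and Y-linked reads, 1 was positive past the threshold with a median of 0.38, and the genotype comparison on MCD gave 25 higher with a median of 0.29. Within the 12 Xist-high libraries the genotype comparison on MCD gave 17 higher with a median of 0.29. Within the 10 Xist-low libraries it gave 10 higher with a median of 0.41. The median of all genes was −0.01 in each. The interaction was positive for 14 in Xist-high libraries (median 0.44). In Xist-low libraries it was positive for 0 and negative for 1 (median 0.43). The share of all genes called in these smaller fits is not given here. Without Cre MCD 3 the genotype comparison on MCD gave 42 higher and the interaction gave 36 positive.

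**Figure D2:**
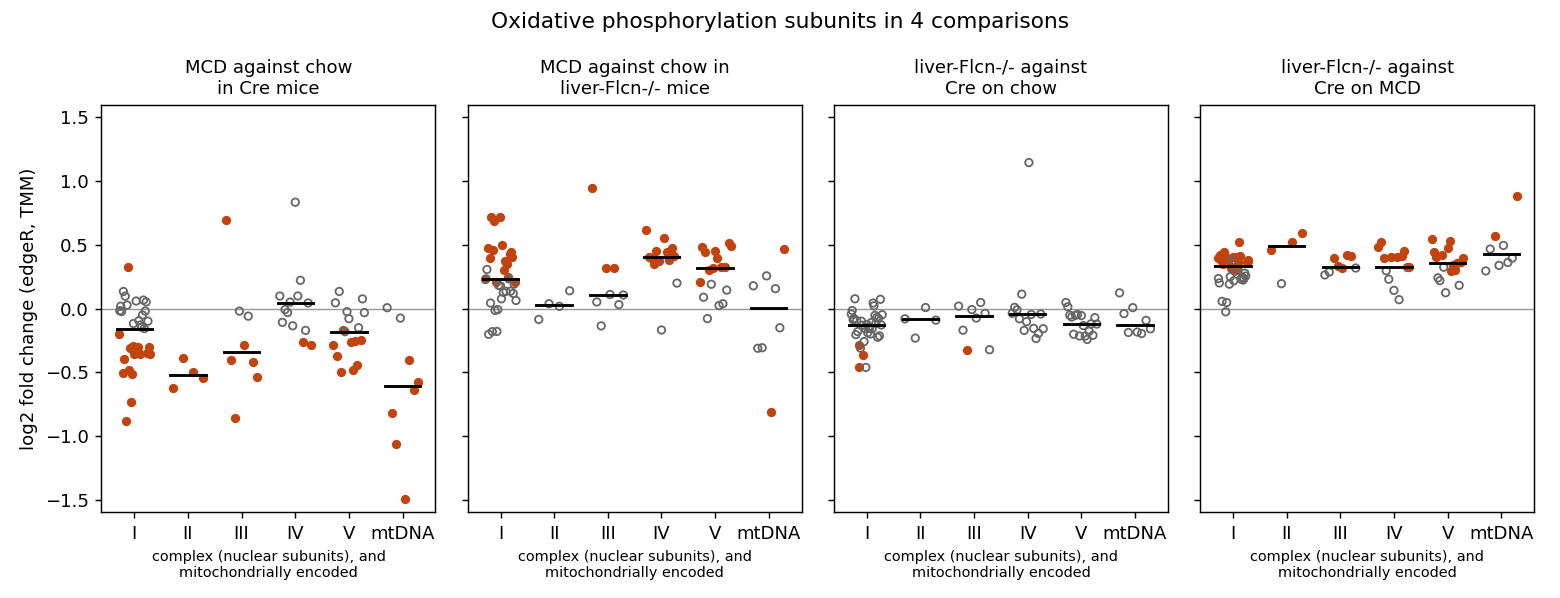
Log2 fold change (edgeR, TMM) of each subunit in 4 comparisons, for the nuclear subunits of complexes I to V and for the mitochondrially encoded subunits (mtDNA). Filled points passed an adjusted p of 0.05, open points did not, bars are medians, and Cox6a2 and Cox8b are not drawn where they lie beyond 1.6 in size. The nuclear medians lie at or below 0.04 in Cre livers on MCD and above 0 in liver-Flcn-/- livers on MCD, and on library totals those of Cre livers shift upward with all genes.

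Complex I takes electrons from NADH. Of its 35 nuclear subunits, 17 fell and 1 rose with MCD in Cre livers (median −0.16), 17 rose and none fell in liver-Flcn-/- livers (median 0.23), and 19 were higher in liver-Flcn-/- than in Cre livers on MCD (median 0.34). For each complex these counts stand against 28.2% of all genes falling and 29.3% rising in Cre livers, 22.5% rising and 22.5% falling in liver-Flcn-/- livers, and 8.06% higher between genotypes on MCD. Ndufa6, an accessory subunit (chr15:82350140-82354322, minus strand), had the largest fall of the nuclear subunits in Cre livers with all libraries. It was at 177 to 218 CPM in Cre livers on chow (median 198.5) and at 101.7, 114.6, 100.4, 103.7 and 117.3 CPM on MCD, so that the groups did not overlap (log2 fold change −0.88 ± 0.08 SE, edgeR adjusted p = 8.91e-09). In liver-Flcn-/- livers it was at 176.7, 147.1, 171.6, 154.1 and 160.2 CPM on chow and at 126 to 157 CPM on MCD (median 143). These groups overlapped, and the smaller difference did not pass (−0.18 ± 0.08 SE, edgeR adjusted p = 0.0614). The interaction was 0.70 ± 0.11 SE (edgeR adjusted p = 0.000912), and it remained positive (0.54) with library totals.

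The nuclear core subunits of complex I described here had values nearer 0 than Ndufa6 with MCD in Cre livers. Ndufs1, the largest iron-sulfur subunit, was at 123.5 to 161.5 CPM in Cre livers on chow (median 139.5) and at 132.2, 121.0, 150.8, 110.1 and 133.0 CPM on MCD, which did not pass (−0.13 ± 0.10 SE, edgeR adjusted p = 0.284). In liver-Flcn-/- livers it was at 150.9, 128.0, 150.9, 141.8 and 157.7 CPM on chow and at 149.0 to 216.0 CPM on MCD (median 189.8), a rise of 0.35 ± 0.10 SE (edgeR adjusted p = 0.00703). On MCD the genotypes overlapped in 1 liver of each, and liver-Flcn-/- livers were higher (0.52 ± 0.10 SE, edgeR adjusted p = 0.0012). Ndufv1, which binds NADH, was likewise higher on MCD in liver-Flcn-/- livers (0.36), whereas Ndufs7 (0.28) and Ndufs8 (0.25), which carry iron-sulfur clusters, did not pass. Of these core subunits, Ndufs8 fell in Cre livers (−0.35).

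Ndufa7 had the largest genotype difference on chow among the subunits that passed. It was at 86.1 to 100.3 CPM in Cre livers (median 91.5) and at 78.1, 64.5, 62.4, 62.6 and 68.2 CPM in liver-Flcn-/- livers, with no overlap (−0.46 ± 0.09 SE, edgeR adjusted p = 0.0013, exact permutation p = 0.00216, the smallest that 6 against 5 livers can give). On MCD the genotypes did not differ beyond their spread (−0.03 ± 0.08 SE), and Ndufa7 was the lowest complex I subunit in that comparison. Ndufa5 (0.72), Ndufb4 (0.72) and Ndufa8 (0.68) were among the 5 largest rises with MCD in liver-Flcn-/- livers, and Ndufa8 also rose in Cre livers (0.33). Ndufb4 has a mean of only 4.84 CPM and shares 17.2% of its windows with Ndufb4c and a processed copy. Ndufb11 fell in Cre livers (−0.74) and was lower on chow in liver-Flcn-/- livers (−0.36), and Ndufa13 (−0.50) and Ndufa9 (−0.48) fell in Cre livers. Ndufa10 had the smallest interaction of complex I (0.25, edgeR adjusted p = 0.294).

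Complex II, succinate dehydrogenase, links the citric acid cycle to the quinone pool, and it was the complex with the lowest nuclear median in Cre livers on MCD. All 4 subunits fell there, from −0.62 for the flavoprotein Sdha and −0.55 for the membrane anchor Sdhd to −0.49 for the anchor Sdhc and −0.39 for the iron-sulfur subunit Sdhb. None passed in liver-Flcn-/- livers, where values ran from −0.09 (Sdha) to 0.14 (Sdhd), and all 4 interactions passed, from 0.43 (Sdhb) to 0.69 (Sdhd). Sdhd (chr9:50596357-50603812, minus strand) was at 231 to 270 CPM in Cre livers on chow (median 240) and at 165.2, 147.1, 170.5, 161.9 and 193.3 CPM on MCD. In liver-Flcn-/- livers it was at 256.6, 217.6, 221.9, 223.9 and 229.9 CPM on chow and at 226 to 271 CPM on MCD (median 262). Only the Cre MCD livers lay apart, below all 17 others. On MCD, Sdhd, Sdhc and Sdha were higher in liver-Flcn-/- livers (0.60, 0.52 and 0.46, edgeR adjusted p = 2.57e-05, 6.19e-05 and 0.000924), and Sdhb was not (0.20, edgeR adjusted p = 0.152). Per kilobase of exon, Sdhd had the highest mean level of the 4 (184 CPM per kb), before Sdha (120), Sdhb (109) and Sdhc (59.97).

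Complex III, the cytochrome bc1 complex, held Uqcrb, with all libraries the second largest nuclear fall with MCD in Cre livers. It also held Uqcr10, the largest rise in liver-Flcn-/- livers among the subunits that passed with all libraries. Of its 8 nuclear subunits, 5 fell and 1 rose in Cre livers (median −0.34), 3 rose in liver-Flcn-/- livers (median 0.11), and 5 were higher in liver-Flcn-/- livers on MCD (median 0.33). Uqcrb (chr13:66900617-66905378, minus strand), a small subunit near the quinone pocket, was at 135 to 161 CPM in Cre livers on chow (median 146) and at 79.1, 76.2, 85.3, 79.5 and 85.8 CPM on MCD. That is a fall of −0.86 ± 0.07 SE (edgeR adjusted p = 4.43e-09). In liver-Flcn-/- livers it was at 124.6, 106.9, 118.3, 113.4 and 122.8 CPM on chow and at 93.9 to 116 CPM on MCD (median 110). On chow all liver-Flcn-/- livers were below all Cre livers, and on MCD all were above. The interaction was 0.72 ± 0.10 SE (edgeR adjusted p = 0.000518), although 16.7% of the windows of Uqcrb also occur in other annotated genes.

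Uqcr10 (chr11:4701973-4704342, minus strand), another small subunit of complex III, rose with MCD in both genotypes. It was at 120 to 164 CPM in Cre livers on chow (median 141) and at 203.9, 282.1, 145.2, 220.2 and 291.3 CPM on MCD (0.70 ± 0.15 SE, edgeR adjusted p = 0.000623). Its levels in liver-Flcn-/- livers were 184.6, 115.0, 139.9, 155.4 and 118.7 CPM on chow and at 228 to 320 CPM on MCD (median 284), without overlap (0.94 ± 0.16 SE, edgeR adjusted p = 5.57e-05). The genotypes did not differ past the threshold on either diet. The catalytic Rieske protein Uqcrfs1 and the core proteins Uqcrc1 and Uqcrc2 were higher on MCD in liver-Flcn-/- livers (0.42, 0.33 and 0.32), and of these only Uqcrc2 fell in Cre livers (−0.28).

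**Figure D3:**
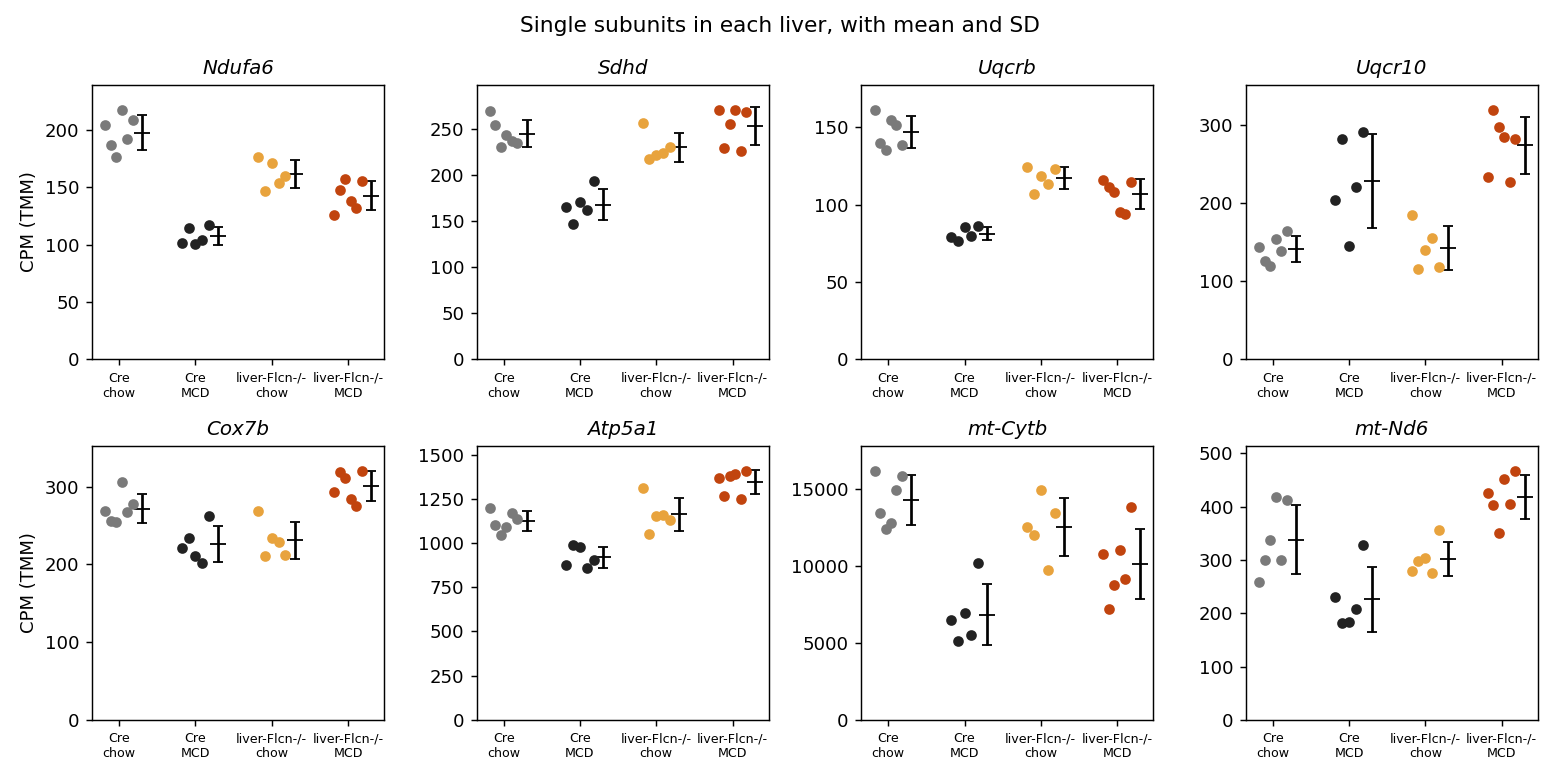
CPM of 8 subunits in each of the 22 livers (points), with mean and SD beside each group of 6, 5, 5 and 6 livers. For Ndufa6, Sdhd and Uqcrb the 5 Cre MCD livers lie below the 6 liver-Flcn-/- MCD livers, and Uqcr10 is higher on MCD in both genotypes.

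Complex IV, cytochrome c oxidase, had a nuclear median near 0 with MCD in Cre livers under TMM scaling. With library totals its subunits turned higher there, such as Cox5b (0.42), Cox6a1 (0.39) and Cox5a (0.32), against a median of 0.43 over all genes. Leaving aside the muscle isoforms Cox6a2, Cox7a1 and Cox8b, 2 of 12 fell (16.7%, below the 28.2% of all genes) and none rose there (median −0.02), 11 of 12 rose in liver-Flcn-/- livers (median 0.41) and 9 of 12 were higher in liver-Flcn-/- livers on MCD (median 0.40). The 2 that fell were Ndufa4 (−0.29) and Cox7b (−0.27). Cox4i1, the regulatory subunit, was at 421 to 526 CPM in Cre livers on chow (median 459) and at 449.7, 593.6, 390.1, 497.5 and 585.7 CPM on MCD. Among liver-Flcn-/- livers it was at 572.5, 416.8, 447.1, 458.8 and 395.5 CPM on chow and at 565 to 820 CPM on MCD (median 697), a rise of 0.62 ± 0.12 SE (edgeR adjusted p = 0.00033). On MCD all but 1 of the liver-Flcn-/- livers exceeded the highest Cre liver (0.48 ± 0.12 SE, edgeR adjusted p = 0.00906). Cox5a had the highest genotype difference of the complex on MCD (0.52, edgeR adjusted p = 0.000924), Cox5b was at 0.39, and the smallest among these 12 was that of Cox7a2l, a supercomplex factor (0.07, edgeR adjusted p = 0.698). Cox7b and Cox7c, both small structural subunits, had the largest interactions (0.65 each).

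In isoform pairs of complex IV the liver form was far above the muscle form. Per kilobase of exon, the mean level of Cox6a1 was 363 CPM per kb against 2.50 for Cox6a2, that of Cox8a was 297 against 2.29 for Cox8b, and that of Cox7a2 was 219 against 44.5 for Cox7a2l and 3.37 for Cox7a1. Cox4i2, Cox6b2, Cox7b2 and Cox8c, the alternatives to Cox4i1, Cox6b1, Cox7b and Cox8a, had mean counts of 1.41, 7.73, 0 and 0. Cox6a2 had 615 counts in Cre MCD 3, 62 in Cre MCD 4 and 6 to 37 in the other Cre MCD livers. It had 0 to 2 counts in every chow liver and 3 to 18 in liver-Flcn-/- livers on MCD. Its highest values were thus in the 2 libraries with the most muscle marker RNA, and 735 of its 795 counts were in Cre MCD livers. Without Cre MCD 3 its mean count is 8.57, under the minimum of 10, so Cox6a2 was tested only through the group where it is high and nothing is read from its calls. Whether muscle RNA carries these values was not tested.

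Cox7a1 was the muscle isoform that met the minimum without Cre MCD 3, with a mean count of 27.4. Muscle marker sums on chow were 4.91 to 19.9 CPM. Cox7a1 (chr7:30184144-30186078, plus strand) was at 0.643 to 1.34 CPM in Cre livers on chow (median 1.13) and at 3.27, 1.37, 1.88, 2.04 and 3.07 CPM in liver-Flcn-/- livers, which lay above every Cre liver. On MCD the Cre livers were at 0.412, 0.474, 7.73, 0.582 and 0.154 CPM and the liver-Flcn-/- livers at 0.977 to 4.14 CPM (median 1.75). Only Cre MCD 3, the library with muscle RNA, overlapped. With this library, no comparison of Cox7a1 passed (1.15 on chow, edgeR adjusted p = 0.324, and 0.14 on MCD, edgeR adjusted p = 0.917). Fitting the chow groups alone, the difference on chow passed by edgeR (adjusted p = 0.0208), and by DESeq2 with all libraries it did not (adjusted p = 0.258). Without Cre MCD 3, liver-Flcn-/- livers were higher on chow (1.15, edgeR adjusted p = 0.038) and on MCD (2.32, edgeR adjusted p = 0.000606), and Cox7a1 fell with MCD in Cre livers (−1.34, edgeR adjusted p = 0.00992). Cox8b had 0 to 2 counts in Cre livers on chow and 28, 20, 8, 9 and 1 counts in liver-Flcn-/- livers. Its mean count is 16.1, and 236 of its counts are in Cre MCD 3. Without that library its mean count is 5.62, under the minimum, so nothing is read from its calls either.

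**Figure D4:**
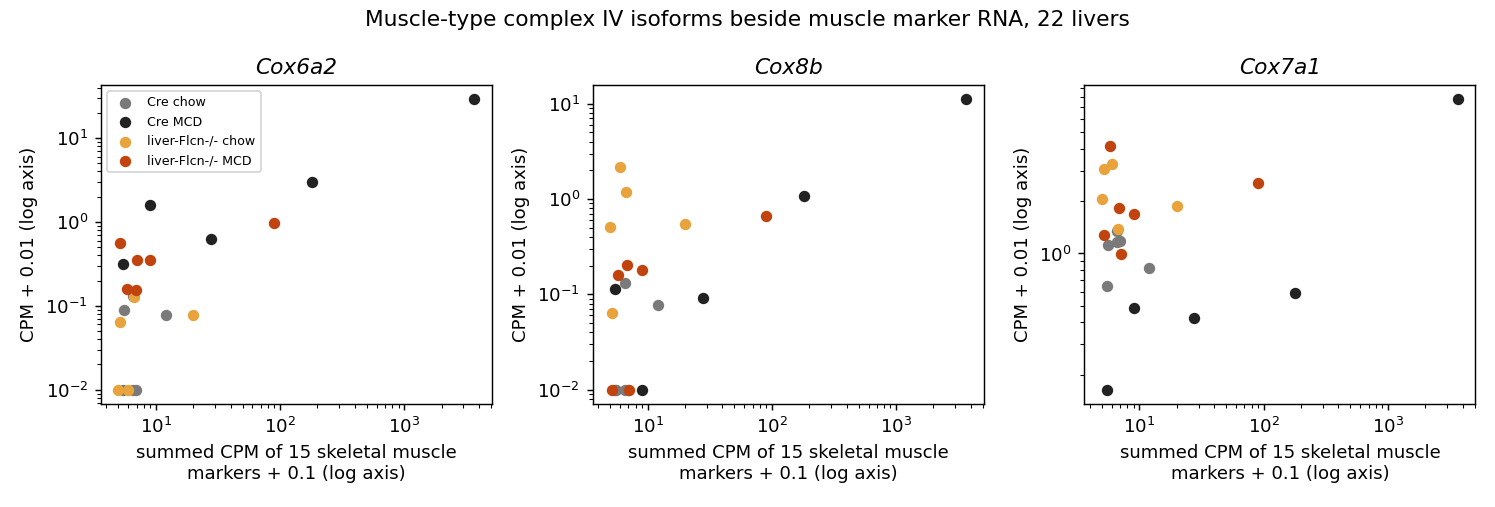
CPM of Cox6a2, Cox8b and Cox7a1 plus 0.01 against the summed CPM of 15 skeletal muscle markers plus 0.1, both on log axes, 1 point per liver, coloured by group. The library Cre MCD 3 is the point at 3649 CPM of marker RNA, and for Cox7a1 the liver-Flcn-/- livers lie above the other Cre livers at similar marker levels on the same diet.

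Complex V, the ATP synthase, held 17 nuclear subunits, of which 9 fell and none rose with MCD in Cre livers (median −0.18), 11 rose and none fell in liver-Flcn-/- livers (median 0.32) and 12 were higher in liver-Flcn-/- than in Cre livers on MCD (median 0.35). Atp5a1, the alpha subunit of the catalytic head, was at 1047 to 1198 CPM in Cre livers on chow and at 876.9, 988.1, 977.5, 858.4 and 901.5 CPM on MCD. The liver-Flcn-/- livers were at 1312, 1053, 1154, 1160 and 1129 CPM on chow and at 1248 to 1410 CPM on MCD (median 1374). The Cre MCD livers were the lowest of the 4 groups and the liver-Flcn-/- MCD livers lay above all of them (0.55 ± 0.07 SE, edgeR adjusted p = 2.75e-05). Atp5b, the catalytic beta subunit, had the highest nuclear level per kilobase (367 CPM per kb) and rose only in liver-Flcn-/- livers (0.48 ± 0.08 SE, edgeR adjusted p = 3.1e-05, against 0.04 ± 0.08 SE in Cre livers), with an interaction of 0.43 (edgeR adjusted p = 0.0157). The gamma subunit Atp5c1 fell in Cre livers (−0.37), the delta subunit Atp5d passed in liver-Flcn-/- livers alone (0.44, interaction edgeR adjusted p = 0.322), and Atp5e had the lowest value in Cre livers (−0.50). Atp5mpl rose most in liver-Flcn-/- livers (0.51) and Atp5h had the largest interaction (0.66). On chow Atp5j2 was the lowest of the complex (−0.24, edgeR adjusted p = 0.13).

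The 3 genes of the membrane-ring c subunit encode the same mature protein. Per kilobase of exon Atp5g3 was at a mean level of 226 CPM per kb, Atp5g1 at 20.7 and Atp5g2 at 8.003, although 35.8% of the windows of Atp5g2 occur in other genes. Atp5g3 rose with MCD in liver-Flcn-/- livers (0.45) and was higher there than in Cre livers on MCD (0.48), and Atp5g2 rose with MCD in liver-Flcn-/- livers (0.32). Atp5g1 passed in no comparison (0.19 with MCD in liver-Flcn-/- livers and 0.32 between genotypes on MCD).

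The mitochondrially encoded subunits fell with MCD in Cre livers, where 6 of 8 passed, none rose, and the median was −0.61. In liver-Flcn-/- livers 1 rose (mt-Nd6) and 1 fell (mt-Nd2), with a median of 0.00. Without mt-Atp6 the median there was −0.15, with 4 of 7 values below 0. On chow none differed between genotypes, with values from −0.20 to 0.12, and 0 did at an unadjusted edgeR p under 0.05, nor by limma-voom or DESeq2. On MCD 2 of 8 were higher in liver-Flcn-/- livers (mt-Nd6 and mt-Cytb), with a median of 0.43, and the 7 readable subunits had values of 0.34 or more. This count was 1 without Cre MCD 1, 2 or 4 or liver-Flcn-/- MCD 6, 3 without liver-Flcn-/- MCD 2 and 5 without Cre MCD 5. The shares of all genes that these counts are to be read against are those given above for the nuclear subunits. With library totals 2 of 8 fell in Cre livers (median −0.20, against 0.43 over all genes), and without the 5 chow libraries of low unique mapping 3 fell.

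mt-Cytb, the heme-carrying core of complex III (chrM:14145-15288, plus strand), was at 12440 to 16210 CPM in Cre livers on chow (median 14220) and at 6494, 5100, 6917, 5509 and 10180 CPM on MCD, without overlap (−1.06 ± 0.17 SE, edgeR adjusted p = 2.7e-05). Its levels in liver-Flcn-/- livers were 12570, 12010, 14950, 9765 and 13430 CPM on chow and at 7188 to 13840 CPM on MCD (median 9984), which overlapped (−0.31 ± 0.17 SE, edgeR adjusted p = 0.149). On MCD the genotypes overlapped as well, since Cre MCD 5 stood among the liver-Flcn-/- livers (0.57 ± 0.17 SE, edgeR adjusted p = 0.0274). mt-Nd2 had the largest fall, from 6304 to 11210 CPM in Cre livers on chow (median 7350) to 3157, 1616, 2872, 2347 and 3926 CPM on MCD (−1.49 ± 0.24 SE, edgeR adjusted p = 1.68e-05). It also fell in liver-Flcn-/- livers (−0.81 ± 0.23 SE, edgeR adjusted p = 0.00571), while its interaction missed the threshold (0.68 ± 0.32 SE, edgeR adjusted p = 0.198). mt-Co1, the catalytic subunit of complex IV, fell in Cre livers (−0.82), as did mt-Nd5 (−0.64) and mt-Nd4 (−0.40). mt-Nd1 passed in no comparison (−0.07 with MCD in Cre livers).

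mt-Nd6 is the only readable subunit encoded on the other strand of the mitochondrial genome. It was at 259 to 418 CPM in Cre livers on chow (median 319) and at 230.5, 181.0, 182.7, 208.5 and 327.9 CPM on MCD (−0.58 ± 0.15 SE, edgeR adjusted p = 0.00195). Among liver-Flcn-/- livers it was at 279.4, 298.0, 304.3, 275.9 and 355.5 CPM on chow and at 351 to 468 CPM on MCD (median 416), a rise of 0.47 ± 0.15 SE (edgeR adjusted p = 0.0127). On MCD all 6 liver-Flcn-/- livers lay above all 5 Cre livers (0.89 ± 0.15 SE, edgeR adjusted p = 0.00033), and its interaction was 1.05 ± 0.21 SE (edgeR adjusted p = 0.0043). With all libraries 1 mitochondrial interaction passed by edgeR, and 2 passed by limma-voom and by DESeq2. Without Cre MCD 5 edgeR gave 3, without liver-Flcn-/- chow 3 or MCD 2 it gave 2, and without the 5 libraries with Xist and Y-linked reads it gave 0. The strand setting of the counting is not given in the sources used here, so reads from the opposite strand of the same positions cannot be told apart. The mean count of mt-Nd6 was 6027, against 74706 to 250625 for the other readable subunits. The libraries were poly(A)-selected, so a change in the capture of mt-Nd6 and a change in its level cannot be told apart either.

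Nuclear and mitochondrial subunits were compared as sums within each library. The 79 nuclear subunits summed to 15185 ± 848 CPM (SD, n = 6) in Cre livers on chow, 13378 ± 1027 (n = 5) in Cre livers on MCD, 14330 ± 1425 (n = 5) in liver-Flcn-/- livers on chow and 17423 ± 1253 (n = 6) in liver-Flcn-/- livers on MCD. On MCD the sums were 12269 to 14537 CPM in Cre and 15550 to 18845 CPM in liver-Flcn-/- livers, which did not overlap. The 8 mitochondrial subunits summed to 57283 ± 8124, 33839 ± 9978, 53084 ± 8187 and 46181 ± 10782 CPM in the same order. On MCD they were 32070, 27114, 34925, 24869 and 50218 CPM in Cre livers, and 31362 to 62276 CPM in liver-Flcn-/- livers, which overlapped. The ratio of mitochondrial to nuclear sums was 3.77 ± 0.42, 2.53 ± 0.68, 3.74 ± 0.73 and 2.67 ± 0.67, so its group mean was lower on MCD than on chow in both genotypes, without a test, and the means on one diet differed between genotypes by less than 1 SD. The mitochondrial sums varied more between livers of a group than the nuclear sums.

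**Figure D5:**
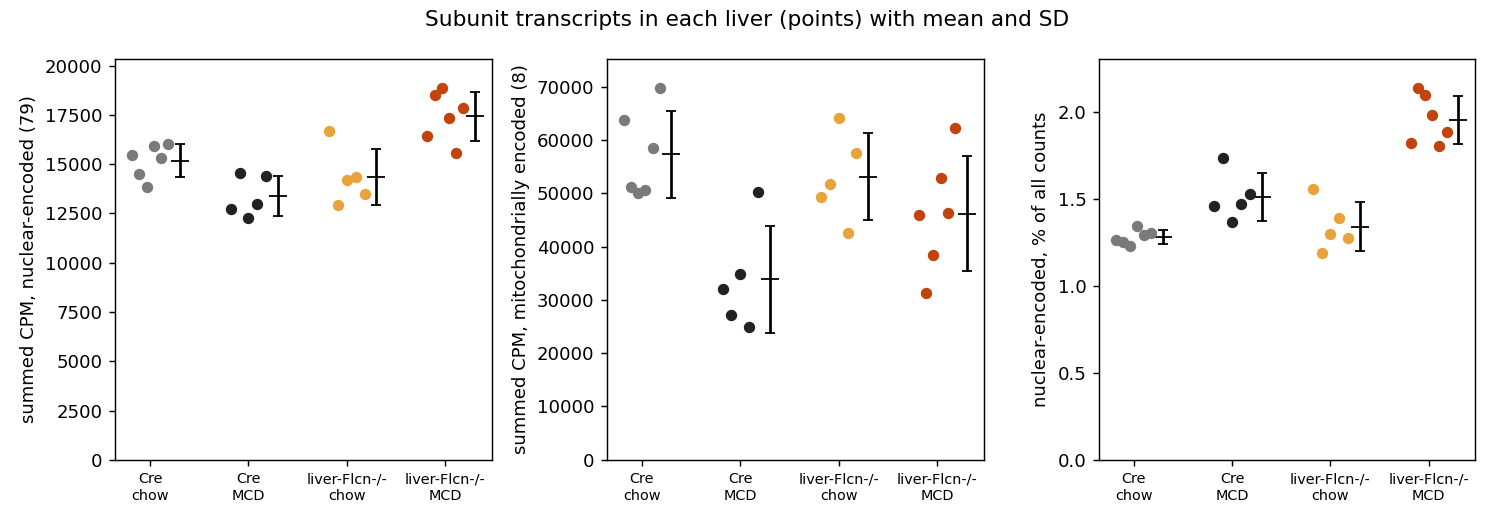
Summed CPM (TMM) of the 79 nuclear and the 8 mitochondrially encoded subunits in each liver, and the nuclear subunits as a percent of all counts, which uses no scaling factor. Points are livers, with mean and SD beside each group. The nuclear sums of the liver-Flcn-/- livers on MCD lie above those of the Cre livers on MCD by CPM and by share, while the Cre MCD livers lie below the Cre chow livers in mean CPM and above them in mean share.

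Genes around the complexes were described by the same test. Of 54 tested assembly factors, 23 fell and 11 rose with MCD in Cre livers, 19 rose and 8 fell in liver-Flcn-/- livers, and 6 were higher and 1 lower in liver-Flcn-/- livers on MCD (median 0.12). These are 42.6% and 20.4% in Cre livers, against 28.2% and 29.3% of all genes, and 35.2% and 14.8% in liver-Flcn-/- livers, against 22.5% and 22.5%. The 11.1% higher on MCD is near the 8.06% of all genes. Sco2, a copper chaperone of complex IV, fell in Cre livers (−1.32) and had the largest interaction (0.86), and Surf1 fell in Cre livers (−1.12). Lyrm7, a factor for Rieske protein insertion, was lower in liver-Flcn-/- livers on chow (−1.502) and on MCD (−1.03), at a mean of 2.54 CPM. Coa7 (1.12) and Dmac2l (1.23) rose most in liver-Flcn-/- livers.

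Of 13 electron carriers and subunits outside the name pattern, 8 were higher in liver-Flcn-/- livers on MCD (61.5%, against 8.06% of all genes, median 0.34) and 5 had a positive interaction (38.5%, against 3.29%). They included the adenine nucleotide carrier Slc25a5 (0.52) and Etfdh, which passes electrons from fatty acid oxidation to quinone (0.46), and Cyc1 and Cycs were at 0.43 each. Slc25a4, the muscle-type adenine nucleotide carrier, rose with MCD in both genotypes (2.75 and 2.05). Skeletal muscle markers were also highest in MCD libraries (3649 CPM in Cre MCD 3, 180.1 in Cre MCD 4 and 89.1 in liver-Flcn-/- MCD 3). The part of muscle RNA in the values of Slc25a4 was not tested. Atpif1, an inhibitor of complex V, rose in both genotypes (0.74 and 0.53). Of 77 mitochondrial ribosomal proteins, 26 rose and 18 fell in Cre livers, 39 rose and 2 fell in liver-Flcn-/- livers, and 5 were higher in liver-Flcn-/- livers on MCD (median 0.08), against 48 of 79 nuclear subunits with a median of 0.34. The shares in Cre livers, 33.8% and 23.4%, are near the 29.3% and 28.2% of all genes, and the 6.49% higher on MCD is below the 8.06% of all genes. Of these proteins 50.6% rose and 2.6% fell in liver-Flcn-/- livers, against 22.5% and 22.5%. Mrpl17 and Mrpl54 rose in both genotypes (1.02 and 1.20 in Cre, 1.13 and 1.11 in liver-Flcn-/- livers).

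Of 38 genes of mitochondrial transcription and mtDNA upkeep, 4 were higher in liver-Flcn-/- livers on MCD and none lower (median 0.10), and this 10.5% is near the 8.06% of all genes. The mtDNA polymerase gene Polg was higher (0.50) with a positive interaction (0.55), and its accessory subunit Polg2 fell with MCD in both genotypes (−1.49 and −0.79). Among 12 regulators of respiratory genes, a list made after values were seen, Ppargc1a, which encodes PGC-1alpha, was at 10.5 to 18.5 CPM in Cre livers on chow and at 17.2, 13.4, 31.3, 16.1 and 17.7 CPM on MCD. The liver-Flcn-/- livers were at 20.9, 16.6, 19.8, 20.1 and 21.8 CPM on chow and at 30.4 to 53.1 CPM on MCD. The liver-Flcn-/- MCD livers were thus the highest group, overlapping only Cre MCD 3 (1.099 ± 0.21 SE on MCD, edgeR adjusted p = 0.000961), and on chow the difference did not pass (0.61 ± 0.21 SE, edgeR adjusted p = 0.0725). Esrra, a partner of PGC-1alpha, was higher on MCD in liver-Flcn-/- livers (0.39), and Tfe3 (−0.29) and Mitf (−0.48) were lower.

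Promoter windows from 250 bases before to 50 after the start (RefSeq, GRCm38.p6) were found for 65 of the 79 nuclear subunits. The windows of 3 of them are shown, since Ndufa6 and Sdhd had 2 of the largest interactions and Uqcr10 rose in both genotypes. Capitals mark the letters CAAGGTCA (the estrogen-related receptor element), GCATGCGC (core of the nuclear respiratory factor 1 site), CCGGAAG (core of the GA-binding protein site), AAGATGGC (YY1), TCACGTGA (the E-box of lysosomal genes) and CCAAT, searched on both strands.
Ndufa6, chr15:82354242-82354541, minus strand: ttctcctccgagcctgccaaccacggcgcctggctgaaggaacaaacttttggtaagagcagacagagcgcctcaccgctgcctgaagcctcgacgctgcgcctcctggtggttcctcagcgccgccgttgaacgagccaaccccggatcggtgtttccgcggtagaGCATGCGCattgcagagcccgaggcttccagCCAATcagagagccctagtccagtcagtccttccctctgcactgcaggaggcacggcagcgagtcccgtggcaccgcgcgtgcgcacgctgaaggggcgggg
Sdhd, chr9:50603800-50604099, minus strand: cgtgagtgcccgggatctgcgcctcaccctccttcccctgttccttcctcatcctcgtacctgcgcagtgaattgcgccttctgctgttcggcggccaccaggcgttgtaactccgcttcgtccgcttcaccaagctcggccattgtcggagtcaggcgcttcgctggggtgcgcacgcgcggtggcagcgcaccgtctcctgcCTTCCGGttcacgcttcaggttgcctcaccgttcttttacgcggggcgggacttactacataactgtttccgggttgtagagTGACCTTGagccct
Uqcr10, chr11:4704295-4704594, minus strand: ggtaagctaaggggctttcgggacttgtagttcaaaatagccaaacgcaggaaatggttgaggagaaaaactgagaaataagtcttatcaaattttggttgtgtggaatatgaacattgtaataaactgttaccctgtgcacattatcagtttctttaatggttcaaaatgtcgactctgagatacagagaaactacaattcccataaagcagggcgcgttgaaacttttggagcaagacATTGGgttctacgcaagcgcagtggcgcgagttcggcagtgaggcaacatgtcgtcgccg
The window of Ndufa6 holds a nuclear respiratory factor 1 core and a CCAAT box, that of Sdhd a receptor element and a GA-binding protein core, and that of Uqcr10 a CCAAT box alone. GCATGCGC occurred in 10 of the 65 member genes (15.4%), against 5.61% of 10546 tested genes with a window and 2.71% of all 32851 windows. AAGATGGC occurred in 13.85% against 5.06% and 2.75%, CAAGGTCA in 6.15% (Atp5g3, Atp5l, Ndufs5 and Sdhd) against 1.38% and 1.56%, and CCGGAAG in 26.2% against 19.2% and 8.86%. TCACGTGA occurred in 1 of 65 (Ndufa7), against 2.15% and 0.974%, and CCAAT in 43.1%, against 42.9% and 37.4%. Members with and without CAAGGTCA had median log2 differences between genotypes on MCD of 0.42 (4 genes) and 0.32 (61 genes), and those with and without GCATGCGC had 0.29 (10 genes) and 0.34 (55 genes). These matches are letters in a window and say nothing of whether a factor binds there.

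Markers of liver cell types also moved with diet and genotype. The 10 hepatocyte markers summed to medians of 136700 CPM in Cre livers on chow, 101500 in Cre livers on MCD, 120300 in liver-Flcn-/- livers on chow and 75430 in liver-Flcn-/- livers on MCD, with Alb the most abundant, and 7 of 10 fell with MCD in either genotype, against 28.2% of all genes in Cre and 22.5% in liver-Flcn-/- livers. On MCD 3 of 10 were lower in liver-Flcn-/- livers, against 8.53% of all genes. The hepatocyte sum was thus lowest in the group where nuclear subunits were highest. The 8 stellate cell markers, led by Reln, summed to medians of 132, 278, 166 and 139 CPM in the same order, and 6 of 8 rose with MCD in Cre livers (29.3% of all genes) and 6 of 8 were lower in liver-Flcn-/- livers on MCD (8.53% of all genes). Of 7 macrophage markers 3 fell with MCD in liver-Flcn-/- livers (22.5% of all genes) and 1 was lower there than in Cre livers on MCD (8.53% of all genes), with medians of 466, 470, 525 and 350 CPM led by Cd5l. The 5 endothelial markers, led by Stab2, had medians of 179, 135, 206 and 162 CPM, and the 5 cholangiocyte markers, led by Spp1, had 57.5, 134, 116 and 123 CPM. Neutrophil markers, led by S100a9, had medians of 2.85, 23.1, 3.45 and 15.1 CPM, lymphocyte markers, led by Cd79b, 4.89, 5.31, 9.16 and 4.95 CPM, and erythroid markers, led by Hbb-bs, 213, 241, 293 and 160 CPM. Fat markers, led by Cfd, had group medians of 0.0309 to 0.485 CPM with 1 of 6 at 0 in every library, and pancreas markers, led by Cela1, had group medians of 10.6 to 48.0 CPM with 2 of 5 at 0. The part of these cell types in the subunit values was not tested.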

How the data were processed

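Messenger RNA from 22 mouse livers was sequenced, and the raw read counts per gene that the authors deposited were used as given. The submitters' processing notes name bcl2fastq, Trimmomatic, STAR, HTSeq and GRCm38; versions, gene annotation and strand setting are not given in the sources used here. The 14062 genes averaging 10 or more counts were tested in R 4.3.3 with edgeR 4.0.16 (quasi-likelihood test, two-sided, TMM factors, 4 groups in 1 fit) and Benjamini-Hochberg adjustment over all tested genes at 0.05. The standard error is the log2 fold change divided by the square root of F. CPM values use the TMM factors, and single genes were also tested by exact permutation. limma 3.58.1, DESeq2 1.42.0, other filters, scalings, sample choices and a replicate block were alternatives. The tests were checked on simulated data.

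The members and gene lists were chosen with earlier results of these data known. Genes named were the catalytic and core subunits (1 of them is not reported here), isoform pairs, and in each comparison the 5 members with the largest changes among those past the threshold, and genes named outside this rule were chosen after their values were seen. The study's methods and legends describe the replicates as mice, and p-values measure the spread between these livers. RefSeq promoter windows were matched by Ensembl gene identifier, and by gene symbol where no identifier matched.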

Additional observations from a re-analysis of the deposited data

Results flagged for a closer look

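A single liver stood apart from the rest of its group in 13 of 224 group checks, where chance alone flags about 11.2. In Cre MCD 3, the library with muscle RNA, these were Sdha (457 CPM, others 329 to 355), Cox6a2 (28.8, others up to 3.01), Cox8b (11.1, others up to 1.07) and Cox7a1 (7.73, others up to 0.582). In Cre MCD 5 they were mt-Nd1 (11340 CPM, others 4857 to 6393), mt-Nd4 (6726, others 3364 to 4263) and mt-Atp6 (1.95, others up to 0.844). In the liver-Flcn-/- library chow 1 they were Ndufa9 (149 CPM, others 122 to 128) and Atp5g3 (544, others 394 to 433). The others were Atp5b in Cre MCD 2 (1678 CPM, others 1348 to 1410), Cox8b in liver-Flcn-/- MCD 3 (0.649, others up to 0.191) and mt-Atp6 in Cre chow 6 (1.69, others up to 0.949) and liver-Flcn-/- chow 3 (1.34, others up to 0.937).

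The response to MCD differed between the genotypes, by the interaction term of edgeR at an adjusted p of 0.05, for 28 of the 54 genes examined by name. Part of these 54 were named for a large change, this difference included, so the count is a description, beside 3.29% of all genes with a positive and 5.54% with a negative difference. The value is the log2 difference of the responses, liver-Flcn-/- minus Cre. In complex I these were Ndufa6 (0.70), Ndufb11 (0.56), Ndufa7 (0.43), Ndufa5 (0.62), Ndufb4 (0.84), Ndufs1 (0.48), Ndufs8 (0.47) and Ndufa9 (0.47). In complex II they were Sdha (0.54), Sdhb (0.43), Sdhc (0.51) and Sdhd (0.69), and in complex III Uqcrb (0.72), Uqcrc2 (0.39) and Uqcrfs1 (0.37). In complex IV they were Cox5a (0.51), Cox7b (0.65), Cox7c (0.65) and Ndufa4 (0.49), and in complex V Atp5a1 (0.50), Atp5b (0.43), Atp5c1 (0.46), Atp5h (0.66), Atp5g3 (0.53), Atp5mpl (0.44) and Atp5j2 (0.58). mt-Nd6 was at 1.05 among mitochondrial subunits, and Cox8b, whose counts lie mostly in 1 library, at −8.11, from which nothing is read, since it met the count minimum only through Cre MCD 3.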

How the results depend on the processing

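Library totals in place of TMM factors, the subsets by Xist and Y-linked reads and the leaving out of libraries that carry both were chosen after seeing the data. With library totals, 4 nuclear subunits fell with MCD in Cre livers, 70 rose in liver-Flcn-/- livers, 1 was lower in liver-Flcn-/- livers on chow, 16 had a positive interaction, and 2 mitochondrial subunits fell in Cre livers. The change in Cre livers then turned positive for Atp5a1 (0.14), Atp5c1 (0.053), Atp5g2 (0.40), Atp5g3 (0.34), Atp5h (0.16), Atp5j2 (0.17), Cox5a (0.32), Cox5b (0.42), Cox6a1 (0.39), Cox7b (0.15), Cox7c (0.25), mt-Nd4 (0.012), Ndufa10 (0.41), Ndufa4 (0.14), Ndufs1 (0.29), Ndufs8 (0.075), Ndufv1 (0.32), Sdhb (0.037), Uqcrc1 (0.41), Uqcrc2 (0.13) and Uqcrfs1 (0.36), and that of Ndufa9 in liver-Flcn-/- livers turned to 0.25. Cox7a1 in Cre livers turned to −1.34 without Cre MCD 3 and to −1.77 in Xist-high libraries, where Cox8b between genotypes on MCD turned to 2.06. Without the 5 libraries with Xist and Y-linked reads, 25 nuclear subunits were higher in liver-Flcn-/- livers on MCD, 20 rose with MCD there, 0 were lower on chow, 1 interaction was positive and 1 mitochondrial subunit was higher. In Xist-high libraries these counts were 17 higher on MCD, 1 lower on chow, 14 interactions and 1 mitochondrial subunit, with 19 nuclear and 3 mitochondrial subunits falling in Cre livers. In Xist-low libraries they were 10, 0, 0 and 1, with 4 rising in liver-Flcn-/- and 24 falling in Cre livers. No low-count filter gave 23 interactions and 2 lower on chow, DESeq2 gave 8 lower on chow, leaving out the 5 chow libraries of low unique mapping gave 2 lower on chow and 3 mitochondrial subunits falling in Cre livers, and fitting only the groups compared gave 1 mitochondrial subunit higher on MCD. The cause of these shifts was not tested, apart from fewer libraries in the subsets.

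Leaving out 1 library at a time gave 41 to 53 nuclear subunits higher in liver-Flcn-/- livers on MCD, 31 to 61 positive interactions (31 without Cre MCD 1, 61 without liver-Flcn-/- chow 1), 37 to 50 rising in liver-Flcn-/- livers, 32 to 38 falling in Cre livers and 3 to 9 lower on chow (9 without liver-Flcn-/- chow 1). The change of Cox7a1 in Cre livers ran from −1.34 to 1.15. For mitochondrial subunits it gave 5 to 6 falling in Cre livers and 1 to 5 higher on MCD (5 without Cre MCD 5). With the replicate block, 20 interactions were positive and no other such count moved by over 1.5 times; same-numbered livers did not deviate together in every pair (correlations from −0.551 to 0.47 between genotypes on chow, and from 0.0621 to 0.262 on MCD, where all 5 were positive but not all over 0.1), so the numbers are not shown to pair the livers.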

Other observations

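Of the mitochondrial transcripts that encode no subunit, 2 ribosomal RNAs and 7 transfer RNAs were tested. The ribosomal RNA mt-Rnr1 fell with MCD in Cre livers (−1.37) and in liver-Flcn-/- livers (−1.03), and mt-Rnr2 fell in Cre livers (−0.82) and was at −0.40 in liver-Flcn-/- livers, which did not pass. Of the transfer RNAs, mt-Ti fell in both genotypes (−3.47 and −2.42) and was higher in liver-Flcn-/- livers on MCD (1.00), while mt-Tw (2.11 and 2.13), mt-Te (2.05 and 3.11) and mt-Tp (1.63 and 2.42) rose in both. The other 3, mt-Tq (−0.72 and 0.06), mt-Tm (−0.66 and −0.26) and mt-Tt (−0.32 and 0.53), did not pass in either genotype. The mean levels of the 4 that changed were 4.20 to 25.1 CPM. The libraries were poly(A)-selected, so a change in capture and a change in level cannot be told apart for the ribosomal and transfer RNAs. Whether their reads came from these RNAs themselves or from longer transcripts over the same positions was not tested.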
